A study of Mus musculus with 14 samples.

Results

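The expression of 10 genes of the colon epithelium was followed in RNA-seq data of 14 mice, 6 of them keratins (Krt8, Krt7, Krt18, Krt19, Krt20 and Krt23) and 4 coding for proteins of the microvillus (Vil1, Espn, Ezr and Myo1a). They were picked by gene name from 55889 genes counted in mice without DSS and 54721 genes counted in mice after DSS, and all 10 were found in both tables. DSS is dextran sulfate sodium, a polysaccharide that injures the colon epithelium when it is given in the drinking water. The mice were C57BL/6N, either WT or miR-29ab1-/-, a germline deletion of the miR-29a and miR-29b-1 locus in every cell of the animal. Without DSS there were 4 WT and 4 miR-29ab1-/- mice, and after DSS there were 3 WT and 3 miR-29ab1-/- mice. The paper states that this RNA-seq followed 3 days of DSS, and it names no recovery period for these mice. The tissue was colon according to the methods, while the labels name small intestinal crypts. The columns after DSS could be tied to a genotype but not to single labelled mice, so their values are given in the order of the table.

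Keratins are the intermediate filament proteins of epithelial cells. A filament is built from pairs of 1 type II keratin and 1 type I keratin, so that Krt8 and Krt7 (type II) need partners such as Krt18, Krt19, Krt20 and Krt23 (type I). In the gut the filaments lie under the apical surface and anchor to desmosomes, and Krt20 is known as a marker of the differentiated cells at the crypt opening. The microvilli above them are finger-like protrusions around a bundle of actin filaments, which villin (Vil1) and espin (Espn) hold together, which ezrin (Ezr) ties to the membrane, and which Myo1a, a membrane-bound myosin, links laterally to the plasma membrane.

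The deleted locus makes miR-29a-3p and miR-29b-3p, which are shown here because matches to their shared seed (bases 2 to 8, in capitals) were searched in the members. Whether other loci make the same microRNAs or others with this seed was not examined here. Both sequences are from RefSeq on GRCm38.p6, minus strand, at chr6:31062673-31062694 and chr6:31063025-31063047.
miR-29a-3p: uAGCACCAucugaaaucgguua
miR-29b-3p: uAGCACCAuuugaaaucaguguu
The match to this seed, TGGTGCT, was searched in the longest annotated 3′ UTR of each gene in GENCODE, whose lengths for the 10 genes ran from 69 bases (Krt18) to 2651 bases (Krt7). Only Krt7 held a match, at bases 1814 to 1820 of its UTR, and the other 9 genes held none. Over all 21699 genes with a UTR, 12.7% held a match, and 9.03% of the 16924 genes with UTRs in the same range of lengths did. A match is a stretch of letters and was not tested as a site. Other kinds of pairing, and matches outside these 3′ UTRs, were not searched, so an absent match does not exclude a direct effect. The Krt7 stretch with the match in capitals is this.
Krt7 3′ UTR: gtcacccaggTGGTGCTagttttgaa

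Promoter windows of 250 bases before to 50 bases after the start were available from RefSeq (GRCm38.p6) for 9 of the 10 genes, Krt19 being the exception. The letters TATAAA, the core of a TATA box, stood on the gene's own strand in the windows of Krt8 and Krt20, and in 8.32% of all 32851 windows (13.6% when both strands are read). The CArG box, the element that serum response factor recognises, stood in the window of Vil1 and in 1.63% of all windows. Among the other listed genes of these structures, the same box was found in windows of Actg1, Krt12, Myo1e and Srf. The 3 windows are printed because they are those of the 10 genes that held one of these elements. The capitals mark TATAAA in the keratins, which begins 29 bases before the RefSeq start in Krt20 and 1 base before it in Krt8, and the CArG box in Vil1, which begins 73 bases before the start. In GENCODE the Krt8 gene starts at another position, 102004482 on the minus strand, so its distance depends on the annotation. The windows of the other 6 genes are not shown, and an absent match says only that these letters are not in the window.
Krt8, chr15:102004293-102004592, minus strand: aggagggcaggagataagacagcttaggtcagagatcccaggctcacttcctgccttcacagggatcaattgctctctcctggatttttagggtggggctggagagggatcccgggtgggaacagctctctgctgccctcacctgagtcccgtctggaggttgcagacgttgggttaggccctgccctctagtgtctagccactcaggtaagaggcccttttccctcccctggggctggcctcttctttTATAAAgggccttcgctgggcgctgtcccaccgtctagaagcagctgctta
Krt20, chr11:99438104-99438403, minus strand: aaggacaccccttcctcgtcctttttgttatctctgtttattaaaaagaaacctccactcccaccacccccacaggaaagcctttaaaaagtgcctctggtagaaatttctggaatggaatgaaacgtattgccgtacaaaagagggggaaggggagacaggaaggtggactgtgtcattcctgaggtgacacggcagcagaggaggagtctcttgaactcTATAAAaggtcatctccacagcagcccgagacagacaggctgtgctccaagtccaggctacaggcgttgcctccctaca
Vil1, chr1:74409134-74409433, plus strand: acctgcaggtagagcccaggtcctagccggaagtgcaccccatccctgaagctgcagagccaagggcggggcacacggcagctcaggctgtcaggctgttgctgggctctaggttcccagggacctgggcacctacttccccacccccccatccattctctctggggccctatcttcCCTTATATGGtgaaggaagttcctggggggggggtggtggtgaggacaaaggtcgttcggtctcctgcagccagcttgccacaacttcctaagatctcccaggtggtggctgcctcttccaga

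The libraries held 14231157 to 18185020 reads on genes without DSS and 20076719 to 23153149 after DSS. Levels are given as CPM, the count of a gene scaled to a common library total, on a scale set by TMM factors over all 14 mice, and 3 reads, taken as the floor, were 0.148 to 0.195 CPM without DSS and 0.141 to 0.179 CPM after DSS on the same scale. Reads from the mitochondrial genome made up 5.70% to 13.9% of a library without DSS and 6.15% to 20.2% after DSS, where the first and second miR-29ab1-/- mice (14.8% and 20.2%) stood above all 3 WT mice (6.15% to 8.81%). Beside the deleted locus, the neighbouring gene Gm27019 had 0 to 2 reads in the WT mice without DSS and 273 to 411 reads in the miR-29ab1-/- mice, and 0 against 151 to 237 reads after DSS. Lncpint, a long noncoding RNA there, had 7 to 23 against 1386 to 2889 reads without DSS and 6 to 14 against 706 to 1144 after DSS. The libraries thus separated by their labelled genotype. The precursors Mir29a and Mir29b-1 had at most 1 read in any mouse and check nothing. Genes of the colon epithelium (7 markers: Epcam, Cdh1, Cldn7, Lgals4, Car1, Slc26a3 and Aqp8) summed to 6410 to 10509 CPM without DSS and 14847 to 18215 CPM after DSS. Epcam is made by all intestinal epithelial cells, so this sum does not tell colon from small intestine. Markers of the small intestine (10 genes) summed to 160 to 282 CPM and 267 to 507 CPM, with Apoa4 at 3 reads or fewer in every mouse. The 12 markers of the anal squamous epithelium, which would bring keratins of their own, summed to 3.37 to 5.38 CPM and 3.84 to 7.34 CPM, and 6 of them (Krt5, Krt6a, Krt1, Trp63, Sprr3 and Ivl) had at most 3 reads in every mouse.

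Compared per gene length (RPKM, with the lengths deposited by the authors), the keratins were both the highest and among the lowest of the 10 genes. Krt8 stood highest, at 1824 to 2635 RPKM over the 8 mice without DSS, followed by Krt19 at 1032 to 1595 RPKM, and the ranges of these 2 genes did not overlap. Krt18 followed at 289 to 489 RPKM and overlapped with Krt20 at 117 to 327 RPKM. The microvillus genes Vil1 (129 to 196 RPKM), Ezr (130 to 222 RPKM) and Myo1a (101 to 178 RPKM) overlapped with Krt20 and with each other. Krt7 was lower, at 20.2 to 25.2 RPKM, and Krt23 (5.43 to 10.5 RPKM) and Espn (5.73 to 9.51 RPKM) were the lowest and overlapped. After DSS the order of the group means was the same down to Krt7, except that Krt20 and Krt18 lay level in miR-29ab1-/- mice (Krt18 at 512 to 705 RPKM and Krt20 at 376 to 675 RPKM over the 6 mice). Of 53 keratin genes in the tables, 22 had more than 3 reads in at least 1 mouse without DSS and 23 did after DSS. The 6 keratins described here took 99.8% to 99.9% of all keratin reads in every mouse, and Krt8 with Krt19 took 84.1% to 86.9% without DSS and 84.8% to 88.1% after DSS. A processed pseudogene, Krt8-ps, held 361 to 678 reads without DSS, or 0.568% to 0.731% of the Krt8 reads, and 244 to 587 reads after DSS, or 0.130% to 0.334%, so a small part of the Krt8 reads may be split between the 2 copies.

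The first comparison asked whether loss of miR-29ab1 was accompanied by other levels of these genes in the uninjured colon. No keratin and no microvillus gene passed the test. In edgeR's quasi-likelihood fit, with p adjusted by Benjamini-Hochberg across 15441 genes, 0 of 10 members had an adjusted p under 0.05, against 0.0194% of all genes tested (3 genes), and 0 of 10 had an unadjusted p under 0.05, against 3.67%. The adjusted p was 0.9995 for each of the 10. The log2 differences, miR-29ab1-/- over WT, ran from -0.03 for Krt19 to 0.31 for Krt23, with 6 above 0 and 4 below, and their median was 0.03 beside -0.00 over all genes tested. In no member did the 4 WT and the 4 miR-29ab1-/- mice fall into separate ranges, which 2.03% of all genes tested did.

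Among the type II keratins, Krt8, the main type II keratin of simple epithelia (GRCm38, chr15:101996698-102004482, minus strand), measured 3580, 5118, 3572 and 5160 CPM in the 4 WT mice. In the 4 miR-29ab1-/- mice it measured 3665, 4113, 5110 and 4396 CPM. Each genotype held both low and high mice, so the spread within a genotype was wider than the difference between them, which was -0.01 on the log2 scale (SE 0.17, 95% interval -0.39 to 0.37). Krt7 (chr15:101411043-101430313, plus strand), a type II keratin more typical of ductal epithelia, measured 169, 142, 178 and 169 CPM in WT and 177, 165, 145 and 160 CPM in miR-29ab1-/- mice. Krt7 varied least of the 10 between mice (SD 0.13 on the log2 CPM scale over 8 mice), and its genotype difference of -0.02 (SE 0.10) had a 95% interval of 0.839-fold to 1.15-fold. This gene, the only one of the 10 with a seed match, had the narrowest interval.

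Of the type I keratins, Krt18, the usual partner of Krt8 (chr15:102028180-102032027, plus strand), measured 415, 703, 466 and 568 CPM in WT and 571, 520, 556 and 536 CPM in miR-29ab1-/- mice. All 4 miR-29ab1-/- values lay inside the WT range (log2 difference 0.03, SE 0.15). Krt19, the smallest keratin (chr11:100140810-100148665, minus strand), measured 2003, 2488, 1991 and 2959 CPM in WT and 1915, 2350, 2630 and 2294 CPM in miR-29ab1-/- mice. The ranges overlapped, with the lowest mouse miR-29ab1-/- and the highest WT (-0.03, SE 0.16). Krt20 (chr11:99428403-99438150, minus strand) measured 226, 566, 337 and 613 CPM in WT and 277, 500, 631 and 444 CPM in miR-29ab1-/- mice. It was the most variable member, with SD 0.54 on the log2 CPM scale over the 8 mice, and 96.7% of the 547 genes within 2-fold of its level had a smaller SD. Its genotype difference of 0.10 (SE 0.34) therefore had the widest interval of the 10, from 0.625-fold to 1.83-fold. Krt23 (chr11:99477974-99493137, minus strand), a low type I keratin, measured 14.7, 8.50, 11.1 and 12.3 CPM in WT and 16.5, 12.0, 12.8 and 16.4 CPM in miR-29ab1-/- mice. The difference of 0.31 (SE 0.19) was the largest of the 10 but had an unadjusted p of 0.13 with edgeR, and the ranges overlapped. Without WT mouse 2 it was 0.18, below that of Krt20 (0.25).

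The microvillus genes varied in the same way. Vil1 (chr1:74409376-74435559, plus strand) measured 459, 694, 580 and 675 CPM in WT and 488, 681, 688 and 651 CPM in miR-29ab1-/- mice (log2 difference 0.06, SE 0.15). Espn (chr4:152120331-152152371, minus strand) measured 47.4, 65.7, 61.0 and 72.6 CPM in WT and 53.9, 78.7, 63.2 and 57.9 CPM in miR-29ab1-/- mice (0.04, SE 0.14). The lowest mouse was WT in both of these actin-bundling genes. Ezr (chr17:6738041-6782784, minus strand) measured 427, 732, 461 and 591 CPM in WT and 475, 592, 576 and 545 CPM in miR-29ab1-/- mice (-0.01, SE 0.16). Myo1a (chr10:127705170-127720940, plus strand) measured 405, 590, 396 and 597 CPM in WT and 373, 492, 592 and 661 CPM in miR-29ab1-/- mice (0.10, SE 0.20). The genotypes overlapped in all 4 microvillus genes. Two-sided exact permutation tests of the mean log2 CPM over mice gave unadjusted p from 0.171 to 0.971 over the 10 members, where 4 mice against 4 cannot go below 0.0286.

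**Figure D1:**
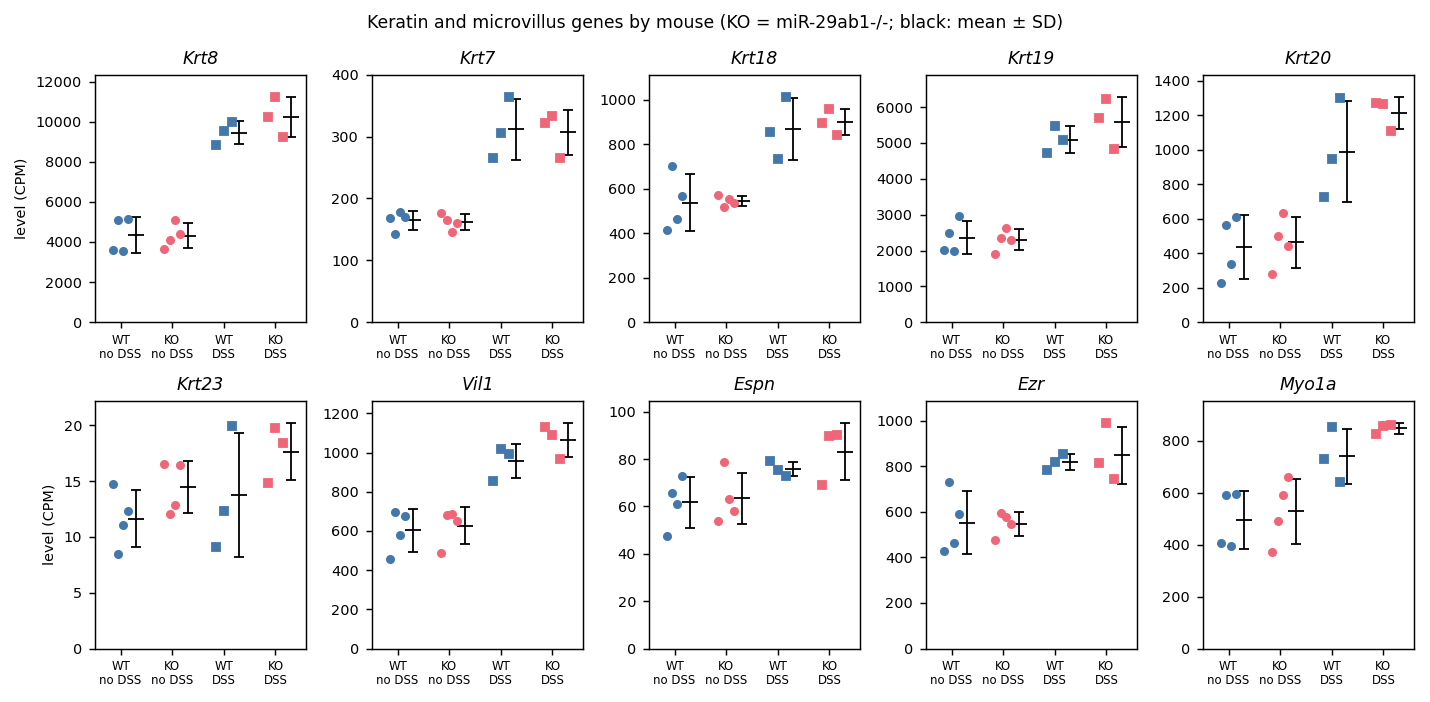
Level of each of the 10 genes in each mouse (CPM, vertical axis from 0) for WT and miR-29ab1-/- mice (KO) without and after DSS, circles and squares being single mice and black bars the mean and SD of a group. WT and KO points overlap in every panel of either experiment, while the points after DSS stand above those without DSS in all mice for Krt8, Krt7, Krt18, Krt19, Krt20, Vil1 and Ezr.

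The second comparison asked the same of mice that had received DSS. Again no keratin or microvillus gene passed the test between genotypes. Of the 10 members, 0 had an adjusted p under 0.05 over 14908 genes with edgeR's quasi-likelihood test (0.0134% of all genes tested, 2 genes) and 0 had an unadjusted p under 0.05 (7.23% of all genes). Of the members, 9 lay higher in miR-29ab1-/- mice and 1 lower, with a median log2 difference of 0.13 beside -0.01 over all genes, and adjusted p from 0.738 to 0.976. The TMM factors of this fit were 0.969, 0.865 and 1.04 in miR-29ab1-/- mice and 1.03 to 1.07 in WT. A lower factor raises the level, and the part of this scaling in these differences was not tested. No member had WT and miR-29ab1-/- mice in separate ranges, against 11.6% of all genes tested. The exact permutation tests gave p from 0.2 to 0.9, and 3 mice against 3 cannot go below 0.1.

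Krt8 measured 8828, 9532 and 10005 CPM in the 3 WT mice and 10206, 11225 and 9226 CPM in the 3 miR-29ab1-/- mice after DSS. Krt19 measured 4719, 5484 and 5084 CPM in WT and 5697, 6214 and 4829 CPM in miR-29ab1-/- mice. In both of these abundant keratins the 2 highest mice were miR-29ab1-/- and the third miR-29ab1-/- mouse lay among the WT mice, with log2 differences of 0.11 (SE 0.18) and 0.13 (SE 0.17). The 2 highest were the mice with the high mitochondrial share, 14.8% and 20.2%, whose part in this was not tested. Krt18 measured 857, 736 and 1013 CPM in WT and 898, 961 and 843 CPM in miR-29ab1-/- mice, and Krt7 measured 266, 306 and 364 CPM in WT and 322, 333 and 265 CPM in miR-29ab1-/- mice. Both of these keratins were nearly level between the genotypes (0.05, SE 0.14, for Krt18 and -0.03, SE 0.14, for Krt7). Krt20 measured 725, 944 and 1301 CPM in WT and 1270, 1264 and 1108 CPM in miR-29ab1-/- mice. The highest value of Krt20 was that of a WT mouse, and the difference of 0.29 (SE 0.20) had a 95% interval of 0.889-fold to 1.68-fold. Krt23 measured 9.07, 12.3 and 19.9 CPM in WT and 14.8, 19.7 and 18.4 CPM in miR-29ab1-/- mice. As without DSS, Krt23 showed the largest difference of the 10, at 0.36 (SE 0.27), with an interval from 0.825-fold to 1.99-fold, but its highest value was that of a WT mouse. This value rested on single mice, being 0.13 without the first WT mouse, below that of Myo1a (0.18), and 0.72 without the third.

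Among the microvillus genes after DSS, Vil1 measured 857, 1019 and 992 CPM in WT and 1131, 1091 and 966 CPM in miR-29ab1-/- mice (log2 difference 0.15, SE 0.13). Espn measured 79.1, 75.5 and 73.0 CPM in WT and 69.1, 89.6 and 90.3 CPM in miR-29ab1-/- mice (0.13, SE 0.12). For villin the lowest mouse was WT, whereas for espin the lowest mouse was miR-29ab1-/-. Ezr measured 784, 817 and 852 CPM in WT and 812, 988 and 745 CPM in miR-29ab1-/- mice (0.05, SE 0.14). Myo1a measured 730, 853 and 640 CPM in WT and 825, 856 and 862 CPM in miR-29ab1-/- mice (0.19, SE 0.13). In Myo1a only 1 WT mouse reached the miR-29ab1-/- range.

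**Figure D2:**
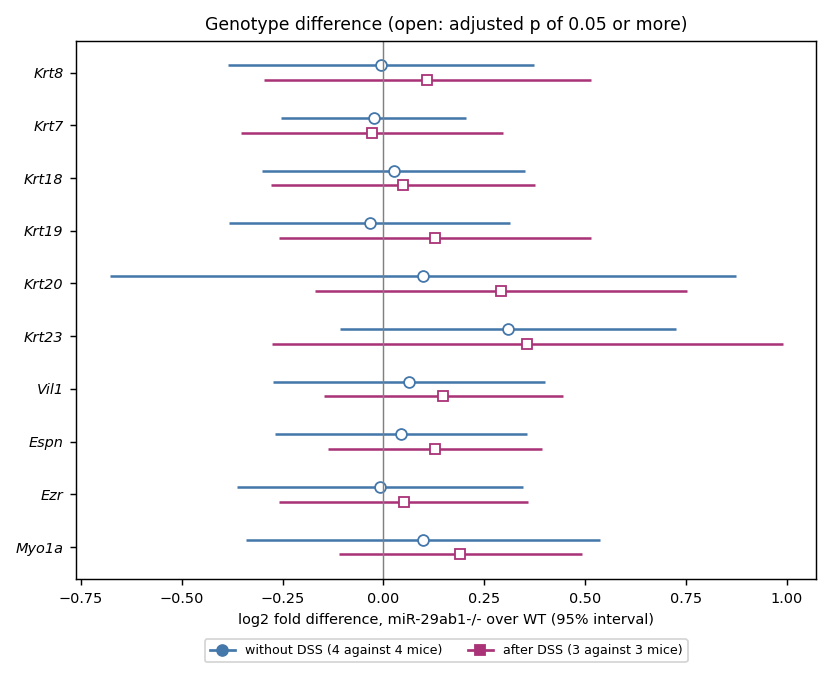
Log2 fold difference of miR-29ab1-/- over WT mice for each gene without DSS (circles) and after DSS (squares), with the 95% interval computed from edgeR's fit as lines and open symbols for an adjusted p of 0.05 or more. All 20 symbols are open and all lines cross 0, the longest being that of Krt20 without DSS, from -0.68 to 0.87.

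Whether the genotype difference itself changed with DSS was tested as an interaction over all 14 mice and the 16370 genes that passed the count filter among those shared by both tables. No member passed, with 0 of 10 at an adjusted p under 0.05 (0% of all genes, 0 with DESeq2 as well) and 0 of 10 at an unadjusted p under 0.05 (4.03% of all genes, 660 genes with edgeR and 700 with DESeq2). The interaction ranged from -0.00 for Krt7 to 0.21 for Krt20 on the log2 scale, the latter with SE 0.47.

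The third comparison set the mice after DSS against those without DSS within each genotype, as the design of the series names both states. The states belong to separate experiments with separate tables, so that DSS and experiment cannot be told apart, and in tissue RNA more cells of a type and more RNA per cell cannot be told apart either. The TMM factors also split by experiment, at 1.06 to 1.14 without DSS and 0.768 to 0.955 after DSS. A lower factor raises the CPM, so this scaling enters each difference below, and its share was not tested. Most of the structural genes stood higher after DSS. In WT mice 8 of 10 members were higher at an adjusted p under 0.05, against 20.2% of 16370 genes tested, and in miR-29ab1-/- mice 9 of 10 were, against 23.2%. No member was lower in either genotype, against 18.1% and 22.7% of all genes. The median log2 difference of the 10 was 0.68 in WT and 0.74 in miR-29ab1-/- mice, beside -0.02 and -0.03 over all genes tested. In 7 of 10 members every mouse after DSS lay above every mouse without DSS, which 15.6% of all genes did.

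Of the 10 genes, Krt20, Krt8 and Krt19 had the highest log2 differences in each genotype. In WT mice Krt8 rose by 1.12 on the log2 scale (SE 0.18, 2.17-fold, adjusted p 0.000264 with edgeR) and Krt19 by 1.11 (SE 0.17, 2.16-fold, adjusted p 0.000182). In miR-29ab1-/- mice they rose by 1.24 (SE 0.18, 2.36-fold) and 1.28 (SE 0.17, 2.43-fold). The keratin of differentiated surface cells, Krt20, rose by 1.19 (SE 0.33, adjusted p 0.0134) in WT and by 1.39 (SE 0.33, adjusted p 0.00427) in miR-29ab1-/- mice, with the largest SE of the 10. Without the third WT mouse after DSS, its adjusted p in WT was 0.0687. Krt7 rose by 0.92 (SE 0.12) in each genotype, the most precise of the differences, and Krt18 rose by 0.69 (SE 0.16) in WT and 0.72 (SE 0.16) in miR-29ab1-/- mice. Krt23 did not pass the test in WT (0.24, SE 0.24, adjusted p 0.452) or in miR-29ab1-/- mice (0.29, SE 0.24, adjusted p 0.336), with intervals of 0.830-fold to 1.68-fold and 0.861-fold to 1.73-fold. With each experiment scaled by itself, Krt23 averaged 14.3 CPM without DSS and 13.9 CPM after DSS, and Krt18 591 and 785 CPM. On that scale Krt8 averaged 4735 and 8728 CPM, Krt19 2541 and 4736 CPM, Krt20 489 and 978 CPM, and Krt7 178 and 275 CPM.

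Of the microvillus genes, 3 of 4 were higher after DSS in WT and 4 of 4 in miR-29ab1-/- mice. Villin (Vil1) rose by 0.67 (SE 0.15) in WT and 0.76 (SE 0.15) in miR-29ab1-/- mice, adjusted p 0.00371 and 0.00104 with edgeR. Ezr rose by 0.56 (SE 0.17, adjusted p 0.0145) and 0.63 (SE 0.17, adjusted p 0.00598). Myo1a rose by 0.58 (SE 0.19, adjusted p 0.0273) in WT and 0.68 (SE 0.19, adjusted p 0.00934) in miR-29ab1-/- mice. In WT the call for Myo1a was lost when any 1 of 4 mice was left out (WT mice 1 and 3 without DSS and the first and second WT mice after DSS), with adjusted p from 0.0543 to 0.0884. Espn, the second bundling protein, had a log2 difference of 0.30 (SE 0.15, adjusted p 0.125) in WT, which did not pass, and rose by 0.39 (SE 0.15, adjusted p 0.0443) in miR-29ab1-/- mice. With each experiment scaled by itself, Espn averaged 68.2 CPM without DSS and 70.5 CPM after DSS. On that scale Vil1 averaged 671 and 896 CPM, Ezr 600 and 739 CPM, and Myo1a 560 and 705 CPM. The call for Espn was lost in 9 of 14 fits that left out 1 mouse (adjusted p up to 0.138), and the interaction above gave no difference between the genotypes.

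**Figure D3:**
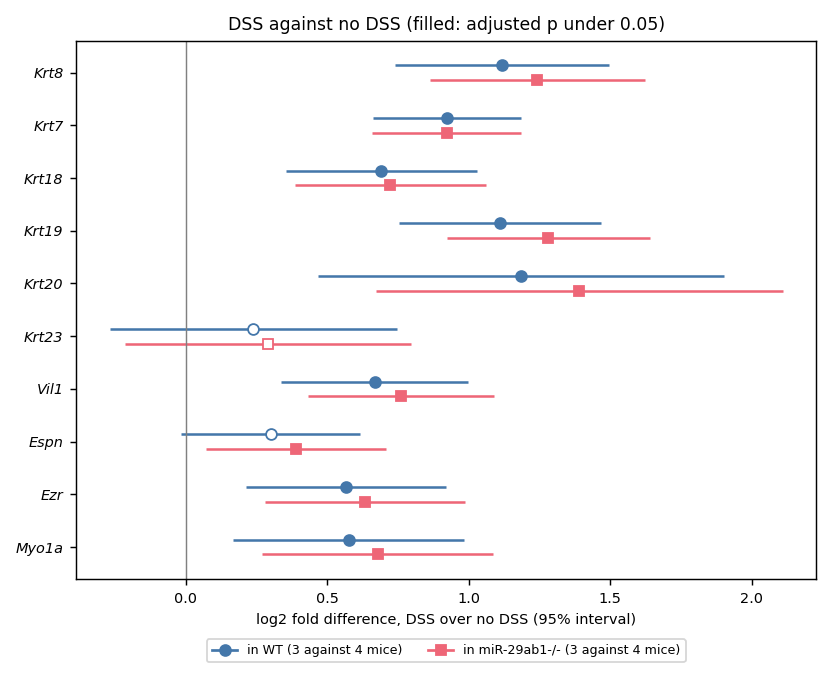
Log2 fold difference of mice after DSS over mice without DSS for each gene in WT (circles) and miR-29ab1-/- (squares), with 95% intervals computed from edgeR's fit as lines, filled symbols passing an adjusted p of 0.05. The symbols of Krt8, Krt19 and Krt20 lie at 1.11 to 1.39, those of Krt23 are open in both genotypes and that of Espn is open in WT.

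The markers of the colon epithelium moved in the same direction. Of the 7 markers, 6 were higher after DSS in each genotype, and Epcam, an adhesion protein of all intestinal epithelial cells, rose by 0.45 (SE 0.12) in WT and 0.53 (SE 0.12) in miR-29ab1-/- mice. The median log2 difference of the 7 markers was 0.66 in WT and 0.91 in miR-29ab1-/- mice, beside 0.68 and 0.74 for the 10 members. Smooth muscle markers (8 genes) summed to 20.4 to 28.2 CPM without DSS and 14.2 to 20.3 CPM after DSS, and leukocyte markers (9 genes) to 59.7 to 250 CPM and 63.2 to 204 CPM. Goblet cell markers (6 genes) summed to 20873 to 58250 CPM and 16828 to 39811 CPM, fibroblast markers (6 genes) to 3.72 to 31.9 CPM and 16.8 to 50.3 CPM, enteric nerve markers (6 genes) to 2.51 to 3.65 CPM and 1.11 to 3.82 CPM, and mesothelial markers (4 genes) to 0.756 to 4.84 CPM and 3.76 to 19.1 CPM. The goblet cell sum does not stand for its single genes. At an adjusted p under 0.05 with edgeR, 3 of the 6 were higher and 1 lower in WT. In miR-29ab1-/- mice 3 were higher and 2 lower. The part of these shifts, or of the mitochondrial share, in the keratin differences was not tested.

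Ratios within a mouse describe the members relative to each other and to Epcam. Epcam rose less after DSS than the median of the 7 colon epithelium markers, so these ratios hold for Epcam and not for the epithelial markers as a set. The ratio of Krt8 to Epcam in RPKM was 2.97 to 3.88 over the 8 mice without DSS and 5.19 to 6.33 over the 6 mice after DSS, with no overlap. The ratios of Krt19 to Epcam (1.64 to 2.11 and 2.94 to 3.70) and of Krt7 to Epcam (0.0290 to 0.0414 and 0.0429 to 0.0566) did not overlap either. Those of the other 7 members did: Krt18 to Epcam was 0.494 to 0.703 without DSS and 0.546 to 0.773 after DSS, Vil1 to Epcam 0.218 to 0.319 and 0.279 to 0.339, and Espn to Epcam 0.00980 to 0.0158 and 0.00881 to 0.0124.

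Krt8 (type II) and Krt19 (type I), the 2 highest keratins, were also set against Krt18. Krt8 to Krt18 was 4.71 to 6.75 in RPKM without DSS and 7.25 to 9.51 after DSS, with no overlap, and Krt19 to Krt18 was 2.60 to 4.03 and 3.89 to 5.77, with a small overlap. The sum of type II keratins (Krt8 and Krt7) over the sum of type I keratins (Krt18, Krt19, Krt20 and Krt23) was 1.12 to 1.24 over the mice without DSS, and 1.20 to 1.29 in those given DSS. The mean of this ratio was 1.20 ± 0.0463 (SD, n = 4) in WT and 1.19 ± 0.0505 (SD, n = 4) in miR-29ab1-/- mice without DSS, and 1.26 ± 0.0277 (SD, n = 3) and 1.23 ± 0.0264 (SD, n = 3) after DSS. Krt20 made up 7.84% to 15.3% of the type I sum without DSS and 10.7% to 16.3% after DSS. These ratios were not tested.

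**Figure D4:**
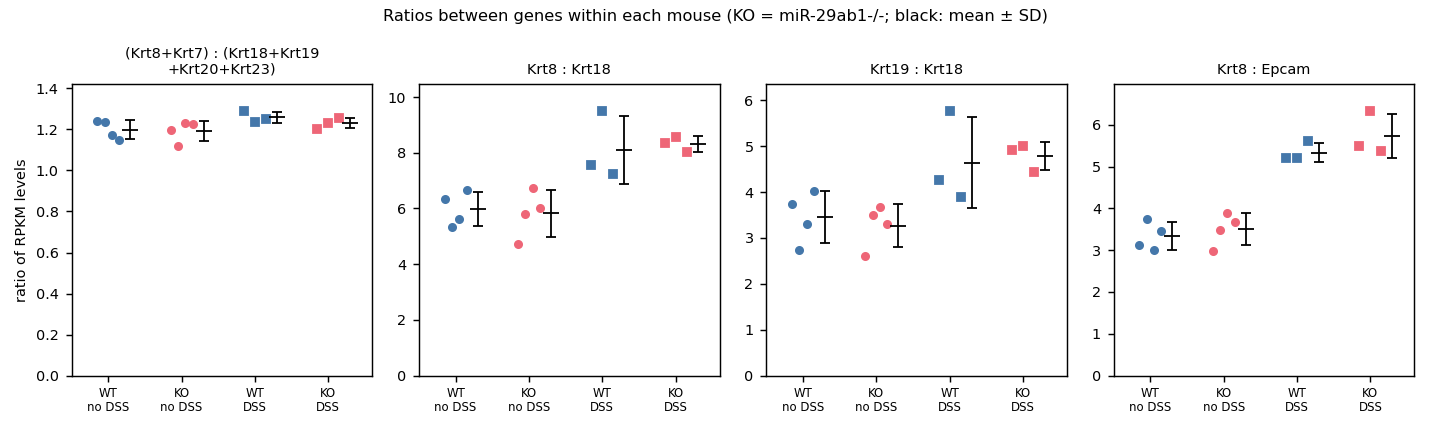
Ratios of RPKM levels within each mouse (vertical axes from 0) for WT and miR-29ab1-/- mice (KO) without and after DSS, circles and squares being single mice and black bars the mean and SD of a group. The sum of type II over type I keratins stays between 1.12 and 1.29 in all 14 mice, while Krt8 to Krt18 and Krt8 to Epcam do not overlap between the mice without and after DSS.

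The other genes of the same structures were taken from 63 listed genes, of which 60 were tested between genotypes. Without DSS none had an adjusted p under 0.05 in edgeR's test and 1 an unadjusted p under 0.05 (3.67% of all genes did), the hair keratin Krt84 (log2 difference -0.91, SE 0.39), at 1.07 to 6.51 CPM over the 8 mice. After DSS none passed the adjusted test and 8 had an unadjusted p under 0.05, 5 higher and 3 lower in miR-29ab1-/- mice, beside 7.23% of all genes. Higher were Eps8, an actin capping protein of the microvillus tip (0.56, SE 0.18), the actin pointed-end capper Tmod3 (0.27, SE 0.10), the transcription factors Srf (0.33, SE 0.14) and Hnf4g (0.44, SE 0.14), and the bundling protein Fscn1 (2.85, SE 0.67), which lay at 0.142 to 3.52 CPM. The low end for Fscn1 is at the floor of 3 reads, 0.141 to 0.179 CPM after DSS, so the size of its difference is uncertain. Lower were the cytolinkers Evpl (-0.43, SE 0.18) and Eppk1 (-0.50, SE 0.15) and the apical scaffold Slc9a3r2 (-0.85, SE 0.22). The adjusted p of all 8 were between 0.646 and 0.668.

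Between mice after DSS and without DSS, 22 of 61 listed genes were higher and 4 lower in WT at an adjusted p under 0.05, and in miR-29ab1-/- mice 29 were higher and 8 lower. Of all genes tested, 20.2% were higher and 18.1% lower in WT, and 23.2% and 22.7% in miR-29ab1-/- mice. Of the adhesion complex that links microvilli to each other, 5 of 6 genes were higher in each genotype and 0 lower, led in level by the protocadherins Cdhr5 (0.99, SE 0.13, in WT and 0.90, SE 0.13, in miR-29ab1-/- mice) and Cdhr2 (0.57 and 0.58). Of 11 other genes of the actin core, 4 were higher in WT and 6 in miR-29ab1-/- mice and none lower, among them the actins Actb (0.89 and 1.33) and Actg1 (1.08 and 1.36). Of 12 keratin partners, 5 were higher and 1 lower in WT and 5 higher and 2 lower in miR-29ab1-/- mice, with Ywhaz, a 14-3-3 protein, at 0.57 and 0.82. The desmosomal linker Dsp did not pass in WT (0.26, adjusted p 0.137) or in miR-29ab1-/- mice (0.29, adjusted p 0.0869).

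Of 7 tested membrane linkers and scaffolds, WT mice had 1 higher and 2 lower, and miR-29ab1-/- mice 2 and 2. The scaffold Slc9a3r1, a direct partner of ezrin, rose by 0.82 (SE 0.17) and 0.79 (SE 0.17). Slk, a kinase that phosphorylates ezrin, fell by 0.74 (SE 0.10) and 0.77 (SE 0.10), and Slc9a3r2 fell by 0.88 (SE 0.17) and 1.78 (SE 0.17), so that these 2 moved against Ezr. The interaction for Slc9a3r2 was -0.90 (SE 0.23, unadjusted p 0.00154, adjusted p 0.987 with edgeR). Of 7 growth and tip genes, WT mice had 2 higher and 1 lower and miR-29ab1-/- mice 3 and 2, Cdc42 at 0.81 and 1.04 and Baiap2l2 at -0.46 and -0.68. Of 6 other brush border myosins, 2 were higher in WT and 4 in miR-29ab1-/- mice, with Myo1d at 0.35 and 0.45, while Myo7b (0.18 and 0.09) did not pass. Of 8 transcription factors of the brush border, 3 were higher and 0 lower in WT and 2 higher and 1 lower in miR-29ab1-/- mice. Klf4, a factor of differentiated epithelium, rose by 0.76 and 0.64, and Cdx1 rose by 0.38 in WT and did not pass in miR-29ab1-/- mice (0.28, adjusted p 0.0883). Of 7 other keratins tested, none passed in WT, while in miR-29ab1-/- mice 3 were higher and 1 lower, Krt84 being among the higher (1.18, SE 0.36), with Krt10 (-0.41 and 0.12) passing in neither.

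Genes whose pattern over mice was most like that of the most variable member were found by the root-mean-square difference in centred log2 CPM, as a description. Without DSS the nearest to Krt20 over 8 mice were Batf2 (0.168), Sult2b1 (0.184) and Syk (0.188), beside a median of 0.559 over all genes tested. The other members were farther away, from 0.310 for Vil1 to 0.712 for Krt23. After DSS the most variable member was Krt23 (SD 0.45 over 6 mice), and the nearest to it were E130102H24Rik (0.0890), Ncf4 (0.0947) and Casp4 (0.0971), beside a median of 0.466. E130102H24Rik and Ncf4 were low, at 1.51 and 1.57 CPM on average with this experiment scaled by itself, and Casp4 averaged 64.5 CPM. Of the members Krt20 was the nearest, at 0.183. The mice of an experiment share depth and preparation, so these distances carry no test.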

How the data were processed

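Total RNA of 14 mice was sequenced. Per gene, unnormalized read counts were deposited by the authors as 1 table for each experiment. The submitters' processing notes name HISAT2 and DESeq2 without versions. The annotation and the use of strand are not given in the sources used here. The 10 genes have the positions of GENCODE vM21 (GRCm38) in both tables. The authors' 14 FPKM columns, p values and fold changes were not used. The columns after DSS carry numbers that are not those of the labels, so they were assigned by genotype only.

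Counts were filtered with filterByExpr (minimum count 10, minimum total 15), scaled by TMM and tested with glmQLFit and glmQLFTest (robust) of edgeR 4.0.16 in R 4.3.3, with Benjamini-Hochberg adjustment over all genes tested. Genotypes were fitted within each table. DSS contrasts and the interaction were fitted over all 14 mice and the genes shared by identifier. Single genes were also compared by exact permutation on log2 CPM (prior count 2). The test was tried on simulated counts first. Alternatives were DESeq2 1.42.0, RLE factors, no filter, all 14 mice in one model, a replicate block and each mouse left out. Mice of the same number were not paired: the deviations of same-numbered mice without DSS correlated at -0.19 to 0.15 over 4 pairs.

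The genes and lists were chosen with earlier results of these data known. The named genes are the 10 members, the listed genes with an unadjusted p under 0.05 between genotypes, the 2 with the highest level per length in each list, and the 3 nearest in pattern. Krt8-ps and the promoter motifs were chosen after their values or letters were seen. Intervals cover the spread between mice, and read floors cover counting error only. Proteins and the Krt19 promoter were not analysed here.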

Additional observations from a re-analysis of the deposited data

How the results depend on the processing

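Between genotypes no member passed the test in any alternative, over 130 values without DSS (adjusted p from 0.902) and 100 after DSS (from 0.483), and none did for the interaction. Counts over all genes moved more. Without DSS, 3 genes were called, against 23 with DESeq2 and 11 with no filter on low counts, and 3 to 5 when 1 mouse was left out. After DSS, 2 were called, against 59 with DESeq2, 46 with no filter and 0 to 93 when 1 mouse was left out. The 93 came without the third miR-29ab1-/- mouse, and the 0 without the second WT or the first miR-29ab1-/- mouse. The interaction gave 0 genes and 0 to 1 when 1 mouse was left out. The causes were not tested.

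Small differences changed sign when 1 mouse was left out. Without DSS the log2 difference of Krt8 ran from -0.089 to 0.074, Krt18 from -0.066 to 0.17, Krt19 from -0.10 to 0.081, Krt20 from -0.11 to 0.30, Krt7 from -0.093 to 0.033, Vil1 from -0.033 to 0.17, Ezr from -0.10 to 0.15, Espn from -0.064 to 0.12 and Myo1a from -0.033 to 0.23. After DSS Krt18 ran from -0.062 to 0.17, Krt7 from -0.13 to 0.10 and Ezr from -0.075 to 0.13. The interaction ran from -0.12 to 0.15 for Krt18, -0.0058 to 0.45 for Krt20, -0.11 to 0.12 for Krt7, -0.18 to 0.41 for Krt23, -0.0094 to 0.20 for Vil1, -0.10 to 0.17 for Ezr and -0.034 to 0.23 for Myo1a. The interaction of Krt7 was 0.0045 with RLE factors and 0.0045 with DESeq2. With the replicate number as a block, Krt8 (0.0011) and Ezr (0.015) without DSS changed sign, 3 genes were called in all and no member. No paired analysis was possible because of missing numbers after DSS, where the columns do not carry those of the labels.

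Between DSS and no DSS, 5 values in WT and 9 in miR-29ab1-/- mice lost the call of 170 values each, all on leaving out 1 mouse (Krt20 and Myo1a in WT, Espn in miR-29ab1-/-), and Krt23 in WT ran from -0.12 to 0.47. Depth bears most on Krt23, the lowest member in CPM. Groups of 3 and 4 mice leave intervals that reach 1.83-fold for Krt20 without DSS and 1.99-fold for Krt23 after DSS between genotypes.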
